A study of Mus musculus with 12 samples.

Results

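Enterocytes of the villus and *Lgr5*+ stem cells of the crypt, sorted from the small intestine of the same cohort of young mice, were compared across the transcriptome. The groups were adult enterocytes (AE, 3 libraries) and intestinal stem cells (ISC, 3 libraries), read from the names of the columns of the count table, and all genes with at least 10 counts in total over these 6 libraries entered the comparison, which left 16681 of 34245 genes. The study sequenced poly(A)+ RNA of both populations in young and in old male mice, 12 libraries in all. All mice were of the C57BL/6 background and carried the Lgr5-EGFP-IRES-CreERT2 allele, in which GFP is driven from the *Lgr5* locus, so that every group shares the reporter. The young cohort had a mean age of 33 weeks. ISC were GFP-high, DAPI- cells of crypt suspensions, which were not stained for other surface proteins. AE were Epcam-high, CD31-, CD45-, DAPI- cells of villus suspensions, a gate that holds every epithelial cell of the villus, secretory cells included. *Lgr5* was therefore part of the ISC gate, and *Epcam* and the genes for CD45 and CD31 were part of the AE gate. The levels of these genes describe the sorts.

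The lining of the small intestine renews itself from the crypt. Stem cells at the crypt base are kept in division by Wnt signals from Paneth cells and the surrounding stroma, and their daughters divide a few more times in the crypt, leave the cycle and move onto the villus. There most become absorptive enterocytes, which carry a brush border of microvilli with digestive enzymes and transporters and pack dietary fat into chylomicrons, while others become goblet, enteroendocrine or tuft cells. Enterocytes are shed at the villus tip within days.

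Total counts ran from 11893817 to 15189033 in 5 of the 6 libraries and reached 110794420 in AE replicate 3. The titles that the samples carry in the labels name another group than the column code in 8 of 12 cases. The markers below follow the cell type in the column codes. They do not tell young from old, so the age in the codes was not tested. Replicates correlated at 0.962 to 0.981 within a group (Pearson's r of log2 CPM, counts relative to the TMM-scaled library size). AE replicate 2 stood nearest to the ISC libraries, at 0.896 to 0.917 against 0.838 to 0.872 for the other two, and genes of the crypt base and of the cell cycle took 0.129% of its counts against 0.0494% and 0.026%. ISC replicate 3 stood nearest to AE, and genes of the enterocyte lists (hydrolases, microvillus, lipid and sugar or amino acid uptake) took 2.35% of its counts against 1.25% and 1.38% in the other ISC libraries. Whether these libraries hold cells of the other sort, or cells between both states, cannot be told apart in bulk RNA, nor can fewer cells of a type be told from less RNA per cell.

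Of the 16681 genes, 4623 were higher in AE (27.7%) and 4241 were lower (25.4%) by edgeR's quasi-likelihood test at a Benjamini-Hochberg adjusted p (FDR) under 0.05, together 53.1% of the genes tested. Differences of at least 2-fold among these were counted for 3477 genes higher and 3165 genes lower in AE. At 8-fold and above the counts were 1232 and 660, and at 32-fold and above 368 and 137, so that the genes higher in AE reached further from 0. Depth bears on this, since 3 counts equal 0.0363 CPM in AE replicate 3 and 0.171 to 0.251 CPM in the other libraries. A gene can also pass the filter on total counts through AE replicate 3 alone. The part of depth and filter in this asymmetry was not tested. The scaling sets where 0 lies. The TMM factors were 1.244 to 1.303 in ISC and 0.7463 to 0.8119 in AE, and the 10 most abundant genes took 8.5% to 12.7% of the counts in AE and 4.17% to 6.06% in ISC. With library totals alone the log2 fold changes moved by -0.70 at the median, between -0.76 and -0.57 for genes with counts in both groups and by less for the 786 genes with no counts in one of them, and 2568 genes were higher and 7137 lower in AE. Calls that were higher made up 52.2% of all calls with TMM and 26.5% with library totals. The sign was positive with TMM and negative with library totals for 2996 genes, 537 of which were called with TMM.

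**Figure D1:**
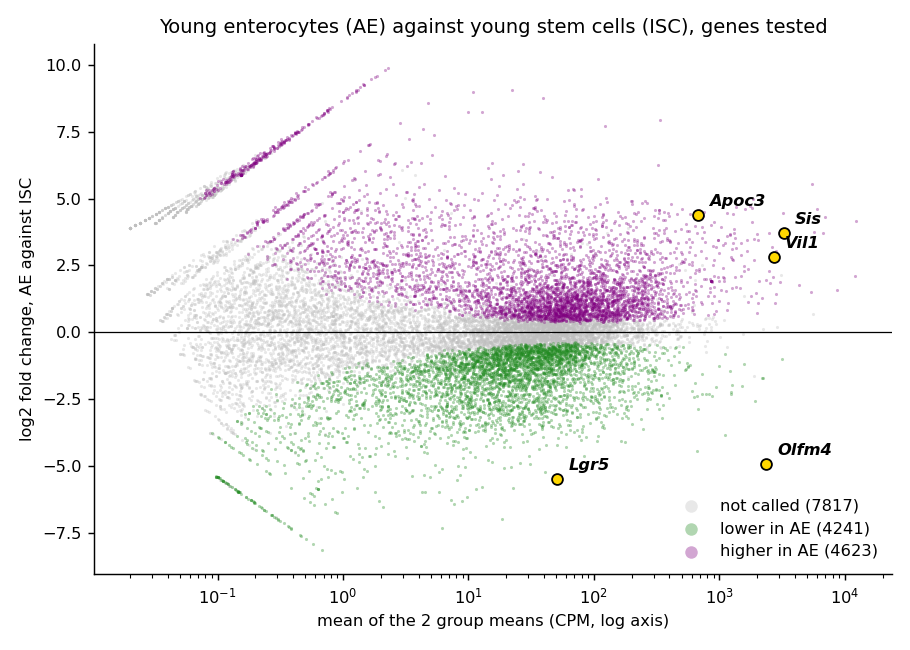
Each of the 16681 genes tested is 1 point, with the mean of the ISC and AE means on a log axis in CPM and the log2 fold change of AE against ISC on the other axis. Purple points are the 4623 genes higher in AE, green points the 4241 genes lower in AE, and grey points were not called. The 5 markers are named, with *Lgr5* and *Olfm4* below 0 and *Vil1*, *Sis* and *Apoc3* above it. The slanted lines at the left are genes with no or very few counts in one of the groups.

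The markers of both cell types lay far apart. *Lgr5*, the receptor for R-spondins that marks crypt base stem cells, lies on chromosome 10 from 115450311 to 115587780 (GRCm38) and had 137, 82.6 and 80.7 CPM in ISC and 2.07, 4.78 and 0.556 CPM in AE. This was 40.5-fold lower in AE (log2 fold change -5.50, SE 0.72, FDR 0.000595). *Olfm4*, a secreted glycoprotein of the same cells, had 5236, 4621 and 3891 CPM in ISC and 91.3, 342 and 23.4 CPM in AE (log2 fold change -4.91, SE 0.91, FDR 0.00252), and the 3 AE libraries themselves differed, with replicate 2 the highest. *Vil1* encodes villin, which bundles actin in microvilli, and had 693, 584 and 762 CPM in ISC and 4601, 5292 and 4307 CPM in AE, 6.96-fold higher in AE (log2 fold change 2.80, SE 0.27, FDR 0.000197). *Sis*, the sucrase-isomaltase of the brush border, had 313, 379.6 and 701 CPM in ISC and 4236, 8658 and 5417 CPM in AE (log2 fold change 3.72, SE 0.45, FDR 0.000435). *Apoc3*, an apolipoprotein of chylomicrons, had 31, 39.5 and 118 CPM in ISC and 1328, 885 and 1688 CPM in AE (log2 fold change 4.37, SE 0.57, FDR 0.000585). For each of the 5 genes the lowest library of the higher group lay above the highest library of the lower group, which was true of 62.9% of all genes tested. The ISC libraries were not free of enterocyte transcripts, since they held *Vil1* at the levels just given, and *Apoc3* was highest in ISC replicate 3.

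The genes of the crypt base were all lower in AE, 16 of 16, with a median log2 fold change of -4.08 against 0.149 over all genes tested. *Ascl2*, the transcription factor that specifies the stem cell state under Wnt, had 55.8, 68.8 and 49.1 CPM in ISC and 2.32, 4.95 and 0.472 CPM in AE. *Smoc2*, a matricellular protein of crypt base cells, had 367, 355 and 286 CPM in ISC and 13.4, 41.5 and 4.02 CPM in AE, and *Slc12a2*, a sodium, potassium and chloride cotransporter of crypt cells, had 1426, 1240.1 and 1149.6 CPM in ISC and 36.4, 119.8 and 19 CPM in AE. In each case AE replicate 2 held the most and AE replicate 3 the least. The Wnt feedback genes had smaller values. *Axin2*, a scaffold of the complex that degrades beta-catenin, had 333, 232 and 214 CPM in ISC and 37.3, 53.7 and 17.8 CPM in AE (log2 fold change -2.85, SE 0.40, FDR 0.000746). The ubiquitin ligases *Rnf43* and *Znrf3*, which remove Frizzled receptors from the surface, were 3.17-fold and 7.1-fold lower, and *Rnf43*, at 33.9, 46.7 and 46 CPM in AE, kept the highest share of its ISC level in this list. Without AE replicate 2 the median of the list was -4.82, and all 16 genes were called whichever library was left out.

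Among 7 genes proposed to mark reserve or regenerating stem cells, 5 were lower and 1 was higher in AE, and the sizes ranged widely. *Hopx* had 136, 181 and 139.9 CPM in ISC and 100.4, 91.4 and 76.7 CPM in AE and *Bmi1*, a Polycomb protein, had 22.9, 26.8 and 23.4 CPM in ISC and 15.8, 16.3 and 15.5 CPM in AE, which were 1.7-fold and 1.53-fold lower. *Lrig1*, an inhibitor of EGF receptors in stem cells, was 7-fold lower and *Mex3a*, an RNA-binding protein, 21.7-fold lower. *Clu*, a marker of regenerating epithelium, was the one gene higher in AE, at 1.16, 0.69 and 0.854 CPM in ISC and 1.41, 2.26 and 5.95 CPM in AE, and its call was lost when any one library other than AE replicates 1 and 2 was left out (log2 fold change 0.97 without AE replicate 3). The call of *Bmi1* was lost without ISC replicate 2 (-0.54).

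Of 14 Wnt receptors and targets, 9 were lower, 1 was higher and 4 did not pass the test, with a median of -2.38. *Myc*, a driver of growth and ribosome synthesis, had 175, 157 and 110.0 CPM in ISC and 4.89, 21.3 and 1.68 CPM in AE (log2 fold change -4.04, SE 0.83, FDR 0.00412). *Ephb2* and *Ephb3*, receptors that hold cells at the crypt base, were 5.27-fold and 19.4-fold lower. *Cd44* had 109.9, 85.7 and 77.4 CPM in ISC and 25.7, 23.3 and 4.12 CPM in AE. Of the transcription factors that act with beta-catenin, *Tcf7* was 11.2-fold lower and *Lef1* had 17, 20 and 12 counts in ISC and 0, 0 and 1 counts in AE, a ratio of ISC to AE of 104 with a 95% counting interval of 17.8 to 4175. The receptor *Fzd7* was 2.59-fold lower. *Ctnnb1*, *Lrp5*, *Lrp6* and *Sp5* were not called. *Ctnnb1*, which encodes beta-catenin, had 888, 789 and 859 CPM in ISC and 900.4, 1096 and 1136 CPM in AE, and the 95% interval of its log2 fold change ran from -0.17 to 0.77. The coreceptors *Lrp5* (-0.38 to 0.30) and *Lrp6* (-0.02 to 0.61) had intervals of similar width, and all 3 include 0. *Notum*, which encodes a secreted enzyme that inactivates Wnt ligands, was higher in AE at low counts, 0, 0 and 6 counts in ISC and 14, 3 and 411 counts in AE, and was not called without AE replicate 3 (log2 fold change 2.42), ISC replicate 1 (3.68) or ISC replicate 2 (3.63).

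The genes of the cell cycle were all lower in AE, 22 of 22, with a median of -3.04. *Mki67*, an antigen of cycling cells, had 396, 312 and 322 CPM in ISC and 35.7, 104 and 11.8 CPM in AE (log2 fold change -2.77, SE 0.67, FDR 0.00893). *Top2a*, the topoisomerase that untangles replicated DNA, had 485, 407 and 384 CPM in ISC and 26.7, 99.7 and 8.12 CPM in AE. The 6 subunits of the replicative helicase, *Mcm2* to *Mcm7*, were between 9.13-fold and 14.7-fold lower. *Pcna*, the sliding clamp of DNA polymerases, differed least in this list and had 133, 170.1 and 152 CPM in ISC and 32.9, 60.5 and 41.9 CPM in AE. AE replicate 2 was the highest AE library for all 22 genes and replicate 3 the lowest for 20, and the median was -4.19 without replicate 2. Inhibitors of the cycle were mixed, with 6 of 10 higher and 1 lower. *Cdkn1a*, which encodes p21, had 40.5, 33.5 and 66.1 CPM in ISC and 421, 368 and 388 CPM in AE (log2 fold change 3.07, SE 0.28, FDR 0.00017), and *Cdkn2b*, which encodes p15, had 14.7, 12.1 and 28.2 CPM in ISC and 123, 114 and 119.9 CPM in AE. *Rb1*, the retinoblastoma protein, was 3.61-fold higher. *Cdkn2c*, which encodes p18, went the other way at 26.8, 29 and 34.1 CPM in ISC and 5.72, 10.3 and 6.63 CPM in AE, and *Cdkn1b*, which encodes p27, did not pass the test (interval -0.61 to 0.04).

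The machinery that builds ribosomes was lower in AE for 16 of 16 genes, with a median of -2.86. Nucleolin, from *Ncl*, had 1068, 1359 and 1135 CPM in ISC and 124, 269 and 96 CPM in AE (log2 fold change -2.87, SE 0.40, FDR 0.000744). *Npm1*, nucleophosmin, had 488, 669 and 597 CPM in ISC and 65.4, 125 and 47.3 CPM in AE, and *Fbl*, the methyltransferase fibrillarin, was 11.5-fold lower. *Polr1a* and *Polr1b*, the large subunits of RNA polymerase I, were 6.53-fold and 7.45-fold lower. *Bop1* differed least, with 90, 88.8 and 80.8 CPM in ISC and 45, 49 and 46.5 CPM in AE. Of 12 genes of DNA methylation and Polycomb silencing, 9 were lower, 1 was higher and 2 were not called. *Dnmt1* and *Uhrf1*, which copy methylation onto new DNA strands, had 260.2, 211 and 197 CPM in ISC and 20.1, 44.6 and 12.6 CPM in AE and 129.8, 114 and 88.5 CPM in ISC and 4.56, 19.1 and 1.28 CPM in AE. The de novo methyltransferase *Dnmt3a* had 57.2, 53.6 and 48 CPM in ISC and 53.7, 51 and 53.5 CPM in AE, with an interval of -0.34 to 0.32, while *Dnmt3b* was 4.48-fold lower. *Ezh2*, the catalytic subunit of Polycomb complex 2, had 87.5, 85.6 and 74.7 CPM in ISC and 24.6, 30.7 and 23.7 CPM in AE, and *Tet2*, which oxidises methylcytosine, was 1.95-fold higher in AE.

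**Figure D2:**
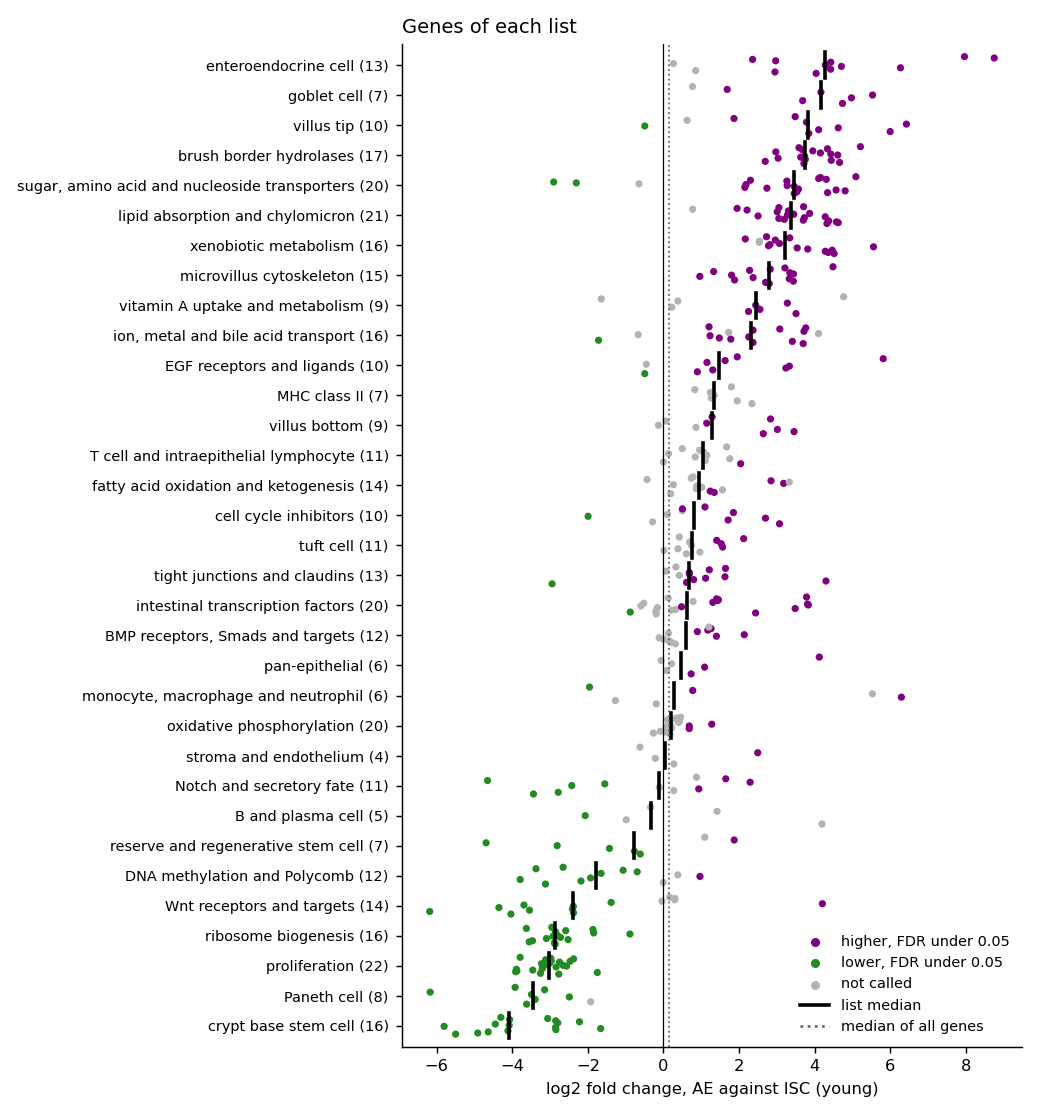
Each row is a list of genes with the number tested in brackets, each point is a gene, and the position is its log2 fold change of AE against ISC in young mice. Black bars are the list medians, which run from -4.08 for the crypt base to 4.28 for enteroendocrine cells, and the dotted line is the median of all genes at 0.149.

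The brush border hydrolases were all higher in AE, 17 of 17, with a median log2 fold change of 3.75 and the smallest at 2.69. *Lct*, lactase, had 143, 89.4 and 185 CPM in ISC and 2900, 3725 and 3933 CPM in AE (log2 fold change 4.66, SE 0.36, FDR 0.000122). *Anpep*, the aminopeptidase N that trims peptides, had 855, 569 and 938 CPM in ISC and 11147, 12617 and 8062 CPM in AE, and *Dpp4* had 155, 132 and 181 CPM in ISC and 1089, 1371 and 1371 CPM in AE. *Slc6a19*, which encodes the neutral amino acid transporter B0AT1 of the brush border, was 23.7-fold higher. *Alpi*, intestinal alkaline phosphatase, had 99.7, 80.3 and 347 CPM in ISC and 1660.2, 2301 and 2780 CPM in AE, with ISC replicate 3 the highest of its group. *Tmprss15*, the enteropeptidase that starts trypsin activation in the duodenum, had low levels of 0.323, 0.978 and 0.683 CPM in ISC and 14, 38.8 and 22 CPM in AE. The microvillus cytoskeleton was higher for 15 of 15 genes with a median of 2.80. *Pls1*, plastin 1, had 251, 185 and 264 CPM in ISC and 2146, 2507 and 2383 CPM in AE and *Espn*, espin, was 10.8-fold higher. The protocadherins *Cdhr2* and *Cdhr5*, which link the tips of microvilli, were 10.8-fold and 10.2-fold higher. *Myo1d* differed least, with 251, 229 and 288 CPM in ISC and 442, 587 and 467 CPM in AE. Both lists kept all their calls whichever library was left out.

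**Figure D3:**
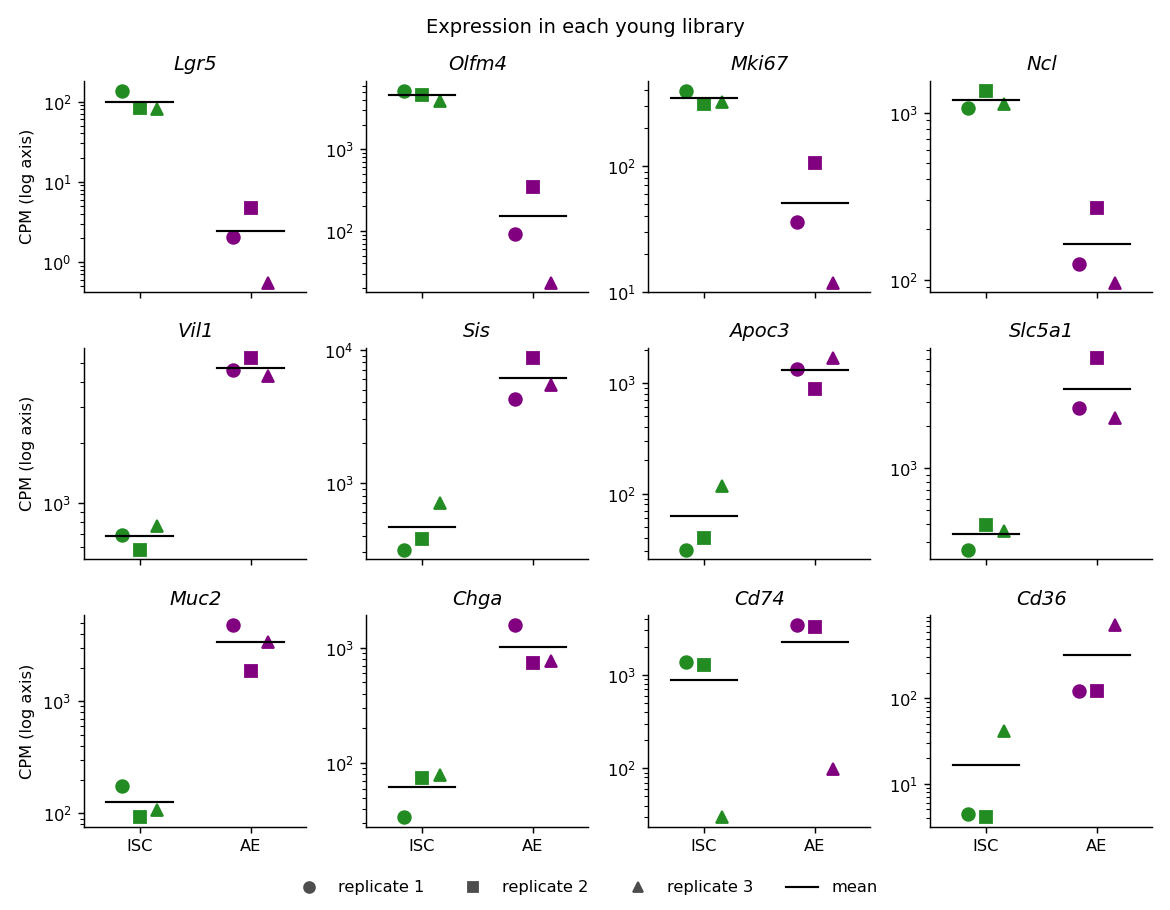
Each panel shows 1 gene in the 6 young libraries on a log axis in CPM, with ISC in green, AE in purple, a symbol for each replicate number and a bar at the group mean. AE replicate 2 (square) is highest among AE for *Lgr5*, *Olfm4*, *Mki67* and *Ncl*, and replicate 3 (triangle) stands apart in both cell types for *Cd74* and *Cd36*.

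Fat absorption was higher in AE for 20 of 21 genes, with a median of 3.36. *Apoa4* and *Apoa1*, apolipoproteins secreted on chylomicrons, had 247, 279 and 874 CPM in ISC and 9414, 10635 and 14481 CPM in AE and 484, 426 and 1067 CPM in ISC and 14867, 11764 and 13027 CPM in AE. *Apob*, their structural protein, and *Mttp*, which loads it with lipid, were 13-fold and 9.17-fold higher. The fatty acid binding protein *Fabp2* had 451, 512 and 1873 CPM in ISC and 9550.5, 9557 and 18510 CPM in AE (log2 fold change 3.73, SE 0.66, FDR 0.00211). *Fabp1* had 143, 162 and 1527 CPM in ISC and 2794, 3088 and 9315 CPM in AE and *Cd36*, a fatty acid receptor, had 4.45, 4.09 and 40.9 CPM in ISC and 121, 121 and 719 CPM in AE. For both, replicate 3 was the highest in each cell type, and *Fabp1* was not called without ISC replicate 1 (log2 fold change 2.58), ISC replicate 2 (2.60) or AE replicate 3 (2.21), nor *Cd36* without ISC replicate 1 (3.83). *Plin2*, which coats lipid droplets, was the gene not called, with 88.1, 85.4 and 118 CPM in ISC and 126, 115 and 255 CPM in AE, and it passed the test with the replicate number as a block (log2 fold change 0.69, FDR 0.012).

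Transporters of sugars, amino acids and nucleosides were higher for 17 of 20 and lower for 2, with a median of 3.46. The sodium-glucose transporter *Slc5a1* had 262, 392 and 358 CPM in ISC and 2688, 6163 and 2289.5 CPM in AE, the basolateral glucose carrier *Slc2a2* had 15.1, 29.7 and 39.4 CPM in ISC and 288, 965 and 458 CPM in AE, and the fructose carrier *Slc2a5* had 10.8, 26 and 34.4 CPM in ISC and 139.9, 364 and 320.2 CPM in AE. In all 3, AE replicate 2 was the highest. The peptide transporter *Slc15a1* was 28-fold higher (log2 fold change 4.81, SE 0.34, FDR 0.00011). The members that were lower are exchangers used by dividing cells, the glutamine transporter *Slc1a5* with 225, 172 and 158 CPM in ISC and 45.4, 38.3 and 28.8 CPM in AE and the large neutral amino acid transporter *Slc7a5* with 36.1, 34.9 and 23.6 CPM in ISC and 3.65, 7.29 and 2.12 CPM in AE. Of 16 genes for ions, metals and bile acids, 12 were higher and 1 was lower. The sodium-hydrogen exchanger *Slc9a3* was 13-fold higher and the chloride-bicarbonate exchanger *Slc26a6* 10.6-fold higher. *Cftr*, the chloride channel of crypt secretion, was the lower one, at 239, 226 and 232 CPM in ISC and 50.8, 121 and 40.7 CPM in AE. The ileal bile acid genes *Slc10a2* and *Fabp6* had 2.07, 2.07 and 1.19 CPM in ISC and 13.4, 42.9 and 14.2 CPM in AE and 69.8, 30.6 and 19.2 CPM in ISC and 284, 289.9 and 46 CPM in AE, with AE replicates in different order for each. *Fabp6* was not called without ISC replicate 2 (log2 fold change 2.21), ISC replicate 3 (2.04) or AE replicate 1 (2.05). In the vitamin A list 5 of 9 were higher, and *Rbp2*, the retinol-binding protein of enterocytes, had 164, 190.2 and 558 CPM in ISC and 3292, 3579.8 and 3498 CPM in AE. Without ISC replicate 1 or ISC replicate 2, 3 of the 9 were called. Cytochromes P450, esterases and efflux pumps of the xenobiotic list were higher for 14 of 16. *Cyp3a11* had 23.2, 21.4 and 143 CPM in ISC and 792, 1013 and 2499 CPM in AE and *Cyp1a1*, the target of the aryl hydrocarbon receptor, had 0.71, 1.84 and 0.797 CPM in ISC and 16.3, 129 and 14.6 CPM in AE, highest in AE replicate 2. *Gstm1* and *Gstm3* were not called, with replicate 3 highest in both cell types, and both passed with the block (FDR 0.000265 and 5.95e-05).

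Sequence upstream of the start site is shown for genes of the 2 opposed programmes, 3 of fat and carbohydrate or phosphate handling in enterocytes and 2 of the cell cycle, chosen because their windows hold the letters searched. Start sites and sequences are those of RefSeq on GRCm38.p6. A window of 250 bases before to 50 bases after the start was searched on both strands for TTTATNG (bound by CDX2), CAAAGTC (HNF4), TTGGCGC or TTCCCGC (E2F) and CCAAT (the CCAAT box), and the 250 bases before the start are printed 5′ to 3′ on the gene's strand. Capitals in the first 3 mark TTTATNG or its reverse complement, and in the last 2 the E2F letters.

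*Sis*, chr3:72967864-72968113, minus strand: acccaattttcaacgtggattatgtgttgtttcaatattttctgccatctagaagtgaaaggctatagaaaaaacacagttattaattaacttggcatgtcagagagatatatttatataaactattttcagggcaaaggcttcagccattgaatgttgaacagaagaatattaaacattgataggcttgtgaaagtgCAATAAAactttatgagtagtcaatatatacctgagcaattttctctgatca

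*Fabp2*, chr3:122894822-122895071, plus strand: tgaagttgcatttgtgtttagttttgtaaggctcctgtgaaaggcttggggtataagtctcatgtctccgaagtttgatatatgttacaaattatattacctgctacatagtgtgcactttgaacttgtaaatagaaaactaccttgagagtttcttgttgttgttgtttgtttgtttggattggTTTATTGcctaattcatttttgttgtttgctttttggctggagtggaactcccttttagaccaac

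*Alpi*, chr1:87101607-87101856, minus strand: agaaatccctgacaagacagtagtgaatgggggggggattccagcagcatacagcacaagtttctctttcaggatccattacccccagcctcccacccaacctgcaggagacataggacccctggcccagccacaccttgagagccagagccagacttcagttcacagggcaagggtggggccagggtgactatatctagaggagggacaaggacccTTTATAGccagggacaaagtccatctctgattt

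*Mcm5*, chr8:75109259-75109508, plus strand: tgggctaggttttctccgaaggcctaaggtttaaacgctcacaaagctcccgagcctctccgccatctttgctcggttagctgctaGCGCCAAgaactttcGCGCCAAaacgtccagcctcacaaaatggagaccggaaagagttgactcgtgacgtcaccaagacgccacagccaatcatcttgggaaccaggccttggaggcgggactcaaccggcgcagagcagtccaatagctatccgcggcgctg

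*Cdk1*, chr10:69352913-69353162, minus strand: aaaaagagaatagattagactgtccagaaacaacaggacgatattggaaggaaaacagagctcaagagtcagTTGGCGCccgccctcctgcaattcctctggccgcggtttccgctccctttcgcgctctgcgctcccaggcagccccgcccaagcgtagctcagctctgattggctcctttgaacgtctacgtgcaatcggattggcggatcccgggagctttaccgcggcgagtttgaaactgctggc

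In *Sis* the capitals begin 52 bases before the start, in *Fabp2* 65 bases and in *Alpi* 33 bases before it, where the same letters read as CTATAAA on the other strand, like a TATA box. *Mcm5*, a helicase subunit that was 14.5-fold lower in AE, holds the E2F letters 164 and 149 bases before the start. *Cdk1*, the kinase that drives entry into mitosis, was 8.17-fold lower and holds them 178 bases before it. The end of the *Mcm5* window, downstream of the start, is in no GENCODE transcript of that gene, while that of the other printed genes is. Of the 14910 windows that matched genes tested, from 11708 genes, 7.12% held TTTATNG, 4.23% the HNF4 letters, 11% the E2F letters and 37.4% CCAAT. Among windows of genes lower in AE, 16.4% held the E2F letters, against 7.93% for genes higher in AE and 9.82% for genes not called. In genes at least 8-fold lower the share was 19% and in genes at least 8-fold higher 5.92%. The HNF4 letters ran the other way, with 5.67% in genes higher, 3.32% in genes lower and 3.79% in genes not called. TTTATNG was held by 7.42% of windows of genes higher and 6.97% of genes lower, and by 11.1% of those at least 8-fold higher and 8.51% of those at least 8-fold lower. The CTATAAA run inside it was held by 5.04% and 4.17% of the windows of these last groups and by 2.58% of windows of all genes tested. In the lipid list 7 of 17 windows held TTTATNG, and 23.5% of the 17 held the CTATAAA run. In the proliferation list 8 of 19 held the E2F letters and 16 of 19 CCAAT. The HNF4 letters were held by 4 of 20 windows in the hydrolase list and 0 of 17 in the lipid list. They were held by 2 of 19 in the proliferation list, and by 0 of 14 in both the ribosome biogenesis and crypt base lists. The median GC content was 59.7% for genes higher and 60.3% for genes lower, against 60% for all genes tested. It was 55% for genes at least 8-fold higher and 58.7% for genes at least 8-fold lower. The part of base composition in the shares of TTTATNG was not tested. A match of letters does not show that a factor binds there.

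Transcription factors that give the intestine its identity were called about as often as other genes, 55% against 53.1% of all genes tested. Of 20 factors, 10 were higher in AE, 1 was lower and 9 did not pass the test, where 27.7% of all genes were higher and 25.4% lower. *Hnf4a* had 1224, 1041 and 978 CPM in ISC and 819.6, 1151 and 869 CPM in AE, with an interval of -0.72 to 0.33 on the log2 scale. *Cdx2* had 251, 318 and 267 CPM in ISC and 215, 277 and 236 CPM in AE (interval -0.62 to 0.22) and *Gata4* had 168, 169 and 163 CPM in ISC and 172, 223 and 181 CPM in AE (interval -0.17 to 0.58), so that a change of 2-fold in either direction lies outside all 3 intervals with TMM scaling. Without the scaling factors the values were -0.89 for *Hnf4a*, -0.90 for *Cdx2* and -0.50 for *Gata4*. *Hnf4g*, the paralogue of *Hnf4a*, had 58.4, 54.6 and 119.8 CPM in ISC and 311, 439.5 and 511 CPM in AE (log2 fold change 2.44, SE 0.35, FDR 0.000848). *Cdx1*, the paralogue of *Cdx2*, was the gene lower in AE, at 262, 319 and 276 CPM in ISC and 160.2, 169 and 137 CPM in AE. *Maf*, a regulator of genes of mature enterocytes, had 39.4, 30.7 and 59.1 CPM in ISC and 614, 619 and 607 CPM in AE (log2 fold change 3.83, SE 0.28, FDR 0.00011). *Klf4*, which acts in cells that leave the cycle, had 37.9, 28.7 and 36.2 CPM in ISC and 376, 364 and 410.1 CPM in AE, and *Creb3l3*, which drives apolipoprotein genes, had 35.6, 28 and 159 CPM in ISC and 771, 770.5 and 1531 CPM in AE. *Prdm1*, known as Blimp1, was 14.1-fold higher at low levels of 0.516, 0.403 and 0.797 CPM in ISC and 6.39, 6.54 and 11.2 CPM in AE. The nuclear receptors *Nr1h4*, *Nr1h3* and *Nr1i2*, which respond to bile acids, oxysterols and xenobiotics, were 2.73-fold, 2.7-fold and 2.65-fold higher, and *Vdr*, the vitamin D receptor, was not called (interval -0.46 to 0.72). The call of *Nr1h4* was lost without ISC replicate 1 (1.28) or ISC replicate 2 (1.27). With the replicate number as a block 11 factors were higher and 3 lower, and 2 were lower without AE replicate 1 or AE replicate 3.

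Signalling genes differed by family, where 27.7% of all genes tested were higher in AE and 25.4% lower. In the Notch and secretory list 5 of 11 were lower and 3 were higher, the higher ones near the share of all genes. The receptors *Notch1* and *Notch2* had 116, 92.3 and 80.2 CPM in ISC and 8.63, 15.6 and 3.06 CPM in AE and 38.3, 34.5 and 31.6 CPM in ISC and 3.82, 9.47 and 2.33 CPM in AE, and their target *Hes1* was 5.34-fold lower. *Neurog3*, the factor of enteroendocrine progenitors, had 15.5, 27.7 and 21.5 CPM in ISC and 0.581, 2.1 and 0.302 CPM in AE. *Atoh1*, which commits cells to secretory fates, and *Spdef*, which acts in goblet cells, were 4.9-fold and 3.14-fold higher. The Notch ligand *Dll4* was 1.91-fold higher. Of 10 EGF genes, 8 were higher and 1 was lower. Among the 8 higher genes, 1 had 0 counts in every ISC library and 3, 2 and 28 counts in AE. That gene passed the filter on total counts only through AE replicate 3. *Egfr*, the lower one, had 40.1, 41.2 and 35.7 CPM in ISC and 29.4, 27.1 and 26.6 CPM in AE, whereas its partners *Erbb2* and *Erbb3* were 1.86-fold and 2.47-fold higher. The ligands *Areg* and *Ereg* had 0.775, 0.46 and 2.16 CPM in ISC and 8.88, 10.6 and 14.8 CPM in AE and 0.775, 0.403 and 0.683 CPM in ISC and 3.57, 6.29 and 7.64 CPM in AE. The call of *Egfr* was lost without ISC replicate 1 (-0.48), ISC replicate 2 (-0.45) or AE replicate 3 (-0.54). In the BMP list 5 of 12 were higher and none was lower. These 5 are targets and feedback inhibitors of the pathway, *Id1*, *Id2*, *Id3*, *Smad6* and *Smad7*, between 1.86-fold and 4.4-fold higher. *Smad7* had 20.5, 10.4 and 15.3 CPM in ISC and 66.4, 62 and 74.9 CPM in AE. *Id1* was not called without ISC replicate 1 (0.87). The receptor *Bmpr1a* (interval -0.02 to 0.64) and the mediator *Smad4* (interval -0.44 to 0.44) were not called.

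Lists of respiration and fatty acid oxidation had medians of 0.20 and 0.95. Of 20 nuclear-encoded subunits of oxidative phosphorylation, 3 were higher and 17 were not called, and the median was -0.50 without the scaling factors. *Atp5b*, a subunit of ATP synthase, had 2404, 2605 and 3040 CPM in ISC and 2863, 3615 and 2803 CPM in AE (interval -0.38 to 0.79). *Cycs*, cytochrome c, was 2.43-fold higher, and 1 of the 20 was called when any library other than ISC replicate 3 was left out. Of 14 genes of fatty acid oxidation and ketogenesis, 4 were higher (28.6%, near the 27.7% of all genes tested), and 11 were with the replicate number as a block and 9 without ISC replicate 3. *Ppargc1a*, a coactivator of mitochondrial genes, was 7.2-fold higher. *Acadl*, the long-chain dehydrogenase, had 62.3, 85.9 and 177 CPM in ISC and 131, 179 and 646 CPM in AE and was not called with all 6 libraries, but was called with the block (log2 fold change 1.34, FDR 0.000824), with DESeq2 (1.56, FDR 0.0156) and without ISC replicate 3 (2.11), AE replicate 1 (1.90) or AE replicate 2 (1.79).

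Markers of position on the villus were both present in AE. Of 9 genes of the villus bottom 6 were higher in AE, and of 10 genes of the villus tip 8 were higher and 1, *Egfr*, was lower. The antimicrobial lectin *Reg3b* had 159, 230.1 and 99.2 CPM in ISC and 2356, 2634 and 364 CPM in AE, with AE replicate 3 lowest. *Nt5e*, which makes adenosine at the tip, had 0.516, 0.575 and 2.28 CPM in ISC and 75, 44.3 and 98.9 CPM in AE, and *Ada*, which degrades adenosine, had 11.6, 18 and 50.1 CPM in ISC and 203, 359 and 584 CPM in AE, both highest in AE replicate 3. In the tight junction list 9 of 13 were higher and 1 was lower, and *Cldn3* and *Tjp1*, both among the higher ones, have the opposite sign without the scaling factors. *Cldn3* was not called when any library other than ISC replicate 3 was left out (0.48 to 0.58), nor *Tjp1* without AE replicate 2 (0.50) or AE replicate 3 (0.58). *Cldn4*, a sealing claudin, had 7.75, 10.8 and 15.1 CPM in ISC and 256, 152 and 255 CPM in AE (log2 fold change 4.30, SE 0.33, FDR 0.000116). *Cldn2*, a claudin that forms cation pores in crypts, had 252, 258 and 246 CPM in ISC and 27.3, 62.8 and 8.74 CPM in AE (log2 fold change -2.95, SE 0.60, FDR 0.00411). Among general epithelial genes *Krt20*, a keratin of differentiated cells, was 17.4-fold higher, while *Cdh1*, E-cadherin, was not called (interval -0.36 to 0.53).

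Goblet, enteroendocrine and Paneth cell genes differed between AE and ISC. Goblet cell genes were higher in AE for 6 of 7, with a summed level of 30300 to 62480 CPM in AE and 2099 to 2431 CPM in ISC. *Muc2*, the gel-forming mucin, had 177, 93.1 and 108 CPM in ISC and 4793, 1884 and 3386 CPM in AE, and *Zg16*, a lectin of the mucus, had 182, 159 and 348 CPM in ISC and 16078, 6285 and 9550.2 CPM in AE. The symbol *Muc2* occurs in several rows of the table, and the row with most counts stands for it here. Enteroendocrine genes were higher for 11 of 13, summing to 3865 to 15210 CPM in AE against 291.8 to 683.8 CPM in ISC. Chromogranin A (*Chga*) had 34.1, 74.2 and 78 CPM in ISC and 1569.9, 736 and 759 CPM in AE, and *Gip*, an incretin of K cells, had 31.8, 133 and 133 CPM in ISC and 5542, 1589 and 650.3 CPM in AE, with AE replicate 1 highest in both. *Gcg*, the precursor of GLP-1, was not called, with 16.6, 11 and 41.3 CPM in ISC and 66.9, 33.9 and 24.1 CPM in AE. Tuft cell genes summed to 305.4 to 947.6 CPM in AE and 222.6 to 427.4 CPM in ISC, ranges that overlap, and 4 of 11 were higher, with 0 called without ISC replicate 1 or ISC replicate 2, 1 without AE replicate 1 and 7 without AE replicate 3. Paneth cell genes were lower for 7 of 8, at 599.1 to 1750 CPM in ISC and 54.75 to 242.6 CPM in AE. Lysozyme (*Lyz1*) had 803, 353 and 210.1 CPM in ISC and 14.8, 77.4 and 19.3 CPM in AE, and ISC replicate 1 held the most of it. The Epcam gate keeps goblet and enteroendocrine cells, and the part of cell mixture in these differences was not tested. Of 11 genes of T cells and intraepithelial lymphocytes 1 was higher, *Ptprc*, which encodes CD45, with 2.65, 1.09 and 3.3 CPM in ISC and 15.3, 8.63 and 5.38 CPM in AE. The AE gate excluded CD45+ cells, and ISC were not stained for CD45. With the replicate block 5 of the 11 genes were higher, and 2 without ISC replicate 1 or AE replicate 3. The T cell receptor genes *Cd3d*, *Cd3e* and *Cd3g* stayed under 3 CPM in every young library. Genes of myeloid cells (2 of 6 higher, 1 lower), of B and plasma cells (1 of 5 lower) and of stroma and endothelium (1 of 4 higher) summed to at most 27.76 CPM in any library, and most of these calls were lost with 1 library left out. Of the 6 myeloid genes, 2 had 0 counts in all ISC libraries, with 31 and 37 counts in total over AE.

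**Figure D4:**
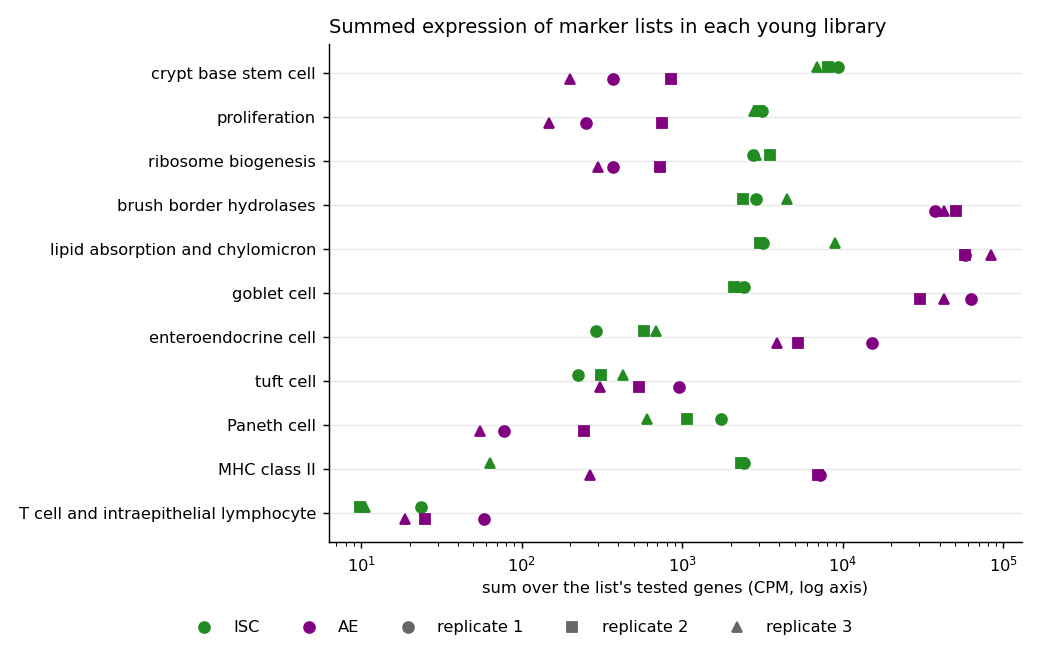
Summed CPM of 11 gene lists in each of the 6 libraries on a log axis, with ISC in green, AE in purple and a symbol for each replicate number. Goblet and enteroendocrine sums are higher in all AE libraries, Paneth sums in all ISC libraries, tuft sums overlap, and the sum for MHC class II is lowest in replicate 3 of both cell types.

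Genes of MHC class II antigen presentation differed by replicate number more than by cell type. *Cd74*, the invariant chain, had 1362, 1264 and 30.2 CPM in ISC and 3410.2, 3225 and 98.8 CPM in AE, and *H2-Aa*, an alpha chain, had 271, 255 and 2.28 CPM in ISC and 1298, 1352 and 25.1 CPM in AE. Replicate 3 was the lowest in both cell types for each of the 7 genes, and *Ciita*, their master regulator, had 44.8, 21.9 and 2.39 CPM in ISC and 89.2, 70.1 and 4.54 CPM in AE. None of the 7 was called, with a median of 1.34, while with the replicate number as a block 7 of 7 were higher in AE, *H2-Aa* by 2.65 on the log2 scale (FDR 0.000103) and *Cd74* by 1.46 (FDR 0.000746). In old mice *Cd74* stood between 565 and 1760 CPM in ISC and between 3870 and 4700 CPM in AE, so that the low values belong to the pair of young libraries with number 3.

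Among called genes with a mean of at least 10 CPM and libraries that do not overlap, 3204 were higher and 2888 lower in AE. The 10 with the largest differences in each direction follow. Those higher in AE include *Nts*, *Sct* and *Pyy* of the enteroendocrine list, and the part of cell mixture in these was not tested. On the higher side *Nts*, neurotensin, had 1.29, 3.28 and 3.47 CPM in ISC and 1274, 436 and 312 CPM in AE, *Sct*, secretin, had 3.29, 10.9 and 10.8 CPM in ISC and 1339, 332 and 264 CPM in AE, and *Pyy*, peptide YY, had 0, 0.173 and 0.341 CPM in ISC and 167, 50.5 and 19.3 CPM in AE. *Resp18* is also a gene of endocrine granules and was 83.2-fold higher. *Ido1*, which degrades tryptophan, had 1.81, 0.69 and 0.967 CPM in ISC and 445, 165 and 123 CPM in AE (log2 fold change 7.73, SE 0.67, FDR 0.000152). *Trpm2*, a calcium-permeable channel opened by ADP-ribose, had 0, 2 and 2 counts in ISC and 826, 201 and 4019 counts in AE, a ratio of 597 with a 95% counting interval of 233 to 2190. *Gsdma*, a gasdermin, had 0, 2 and 2 counts in ISC and 417, 180 and 2273 counts in AE, a ratio of 339 with a 95% counting interval of 132 to 1246. *Sprr2a2*, a small proline-rich protein, had 2 counts in all ISC libraries together and 3.98, 2.26 and 59.4 CPM in AE, mostly in replicate 3. *Adgrg4*, an adhesion receptor, and *Asic5*, a bile acid-sensitive ion channel, completed the 10 and were 79.6-fold and 73.5-fold higher. On the lower side *Cyp2e1*, a cytochrome P450, had 39.8, 23.1 and 47.1 CPM in ISC and 0.0829, 0.838 and 0.169 CPM in AE (log2 fold change -6.99, SE 0.65, FDR 0.000187), opposite to the 14 genes of the xenobiotic list. *Tnfrsf19*, known as Troy, and *Smo*, the transducer of Hedgehog signals, had 35.8, 25.9 and 14 CPM in ISC and 0.166, 1.68 and 0.0484 CPM in AE and 51.4, 37.8 and 38.4 CPM in ISC and 0.415, 3.6 and 0.411 CPM in AE. *Defa21*, a Paneth cell defensin whose reads can be shared with near-identical copies, had 40.5, 21.2 and 5.52 CPM in ISC and 0, 1.09 and 0.242 CPM in AE. *Gkn3* had 52.8, 86.3 and 97 CPM in ISC and 0.498, 6.54 and 0.218 CPM in AE, and *Prelp*, a matrix proteoglycan, had 225, 146 and 129 CPM in ISC and 3.98, 11.2 and 0.883 CPM in AE. *Dctd*, which supplies dUMP for thymidylate, *Scn2b*, a sodium channel subunit, and *Gm830* were 29.1-fold, 27.6-fold and 46-fold lower, and *Lgr5* was the remaining gene.

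Old mice gave the same contrast in separate libraries. Of the 8864 genes called in young mice, 8363 were called in the same direction in old mice, none was called in the opposite direction, and 501 were not called, with 10201 genes called in old mice in all (58.7% of 17377). Values were further from 0 in old mice for 6702 of the 8864 genes, with a median size of 1.85 against 1.66 on the log2 scale. The median over the crypt base list was -4.45 in old and -4.08 in young mice, over the cell cycle -4.15 and -3.04, and over the hydrolases 4.87 and 3.75, with the old values from the fit over 12 libraries. The median lay further from 0 in old mice for 25 of 33 lists. It lay nearer to 0 for enteroendocrine cells (2.93 in old and 4.29 in young mice) and tuft cells (0.39 and 0.74), and for T cells and intraepithelial lymphocytes it was 4.58 and 1.06. The summed level of the T cell list was 3.07 to 4.96 CPM in old ISC, 9.93 to 23.3 CPM in young ISC, 20.6 to 58.4 CPM in old AE and 18.6 to 57.5 CPM in young AE, so that the ages overlapped in AE and lay apart in ISC. Genes of the crypt base and cell cycle took 0.0315% to 0.0357% of the counts in old AE, against 0.026% to 0.129% in young AE, where replicate 2 held the most. Without AE replicate 2 the young medians, from the fit of young libraries, were -4.82 for the crypt base and -4.19 for the cell cycle. The young median of the hydrolases lay between 3.59 and 4.34 with any 1 library left out. The part of AE replicate 2 in the difference between the ages was not tested for the lists. Tested gene by gene, the difference between the ages passed for 1 of 17377 genes (0.00575%), while 757 had an unadjusted p under 0.05, DESeq2 called 43 and edgeR with the replicate block called 21. *Adora2b*, the low-affinity adenosine receptor, was that gene, with 1.48, 1.96 and 1.82 CPM in ISC and 26.6, 29.5 and 30.8 CPM in AE in young mice, and its log2 fold change of AE against ISC was 4.04 in young and 6.95 in old mice, a difference of -2.91 (SE 0.35, FDR 0.0281). The call was lost when any 1 of 9 of the 12 libraries was left out, with FDR up to 0.223 without old AE replicate 2.

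**Figure D5:**
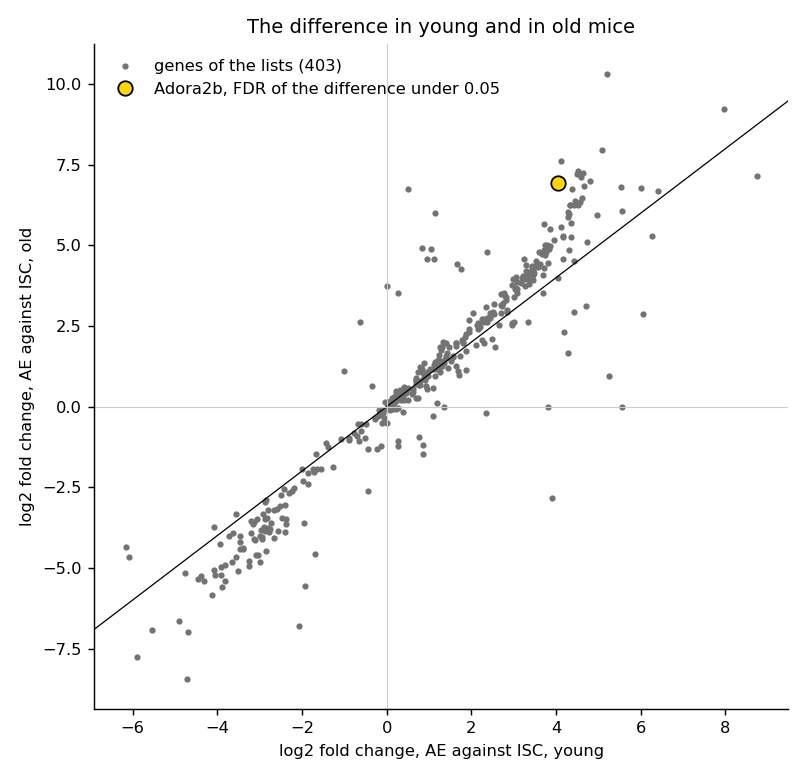
Each grey point is 1 of the 403 genes of the lists, with the log2 fold change of AE against ISC in young mice on one axis and in old mice on the other, from 1 fit over 12 libraries. The line marks equal values, 238 of the 287 list genes called in young mice lie further from 0 in old mice, and the gold point is *Adora2b* at 4.04 and 6.95.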

How the data were processed

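RNA-seq of poly(A)+ RNA was analysed for 3 AE and 3 ISC libraries of young mice, and for all 12 libraries where the ages were compared. The authors deposited whole-number counts per gene, not normalised, from reads trimmed with Trim Galore 0.4.4 and aligned to GRCm38 with HISAT2 2.1.0, per the labels. A deposited table of the authors' own age comparisons, with log2 expression and FDR of the genes they called, was not used. Libraries were prepared with a directional kit, and no molecular identifiers are described, so that intervals from counts cover counting error only. Groups were read from the column codes. The gene lists, their members and the comparison were chosen with earlier results of these data known.

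Genes with at least 10 counts in total were fitted with edgeR 4.0.16 in R 4.3.3 (TMM factors, quasi-likelihood F test of AE against ISC, Benjamini-Hochberg FDR under 0.05). Standard errors are the log2 fold change divided by the square root of F. CPM are counts relative to the TMM-scaled library size, and 3 counts in a library, the limit of detection, equal 0.0363 to 0.251 CPM. The difference between the ages was an interaction term over 12 libraries. Genes named are the markers, the 10 largest differences in each direction among called genes with a mean of at least 10 CPM and libraries that do not overlap, members of 33 lists (403 of 422 symbols tested), and genes whose promoter is printed. A few list members count in the lists and are not reported by name here. The fits were run on simulated counts in which few genes changed, in random directions. Such counts cannot test the scaling where 53.1% of genes are called. Alternatives were DESeq2 1.42.0, other scalings and filters, a fit over 12 libraries, AE replicate 3 thinned at random to the median total of the others, each library left out, and the replicate number as a block.

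Columns with the same number deviated together. The correlation of their deviations from the group means over 12657 genes with a mean of at least 1 CPM was 0.244, 0.327 and 0.437 for same-numbered AE and ISC, and -0.344 to 0.0419 for the others. The number comes from the column codes, which do not say whether it marks a mouse. The study's methods list 3 young mice for RNA-seq, so that AE and ISC with the same number may come from 1 mouse. The main test treats the 6 libraries as independent and does not use such a pairing, and its p-values measure the spread between these libraries. Results with the number as a block are given as an alternative.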

Additional observations from a re-analysis of the deposited data

Results flagged for a closer look

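*Adora2b* was the single gene whose difference between AE and ISC differed between young and old mice by the test of that difference. The difference of its log2 fold changes, young minus old, was -2.91, from 4.04 in young and 6.95 in old mice. In young mice it had 1.48, 1.96 and 1.82 CPM in ISC and 26.6, 29.5 and 30.8 CPM in AE. The value lay between -3.21 and -2.54 with any of the 12 libraries left out, and the call was lost for 9 of them. No group here has 4 or more samples, so no library was tested as an outlier.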

How the results depend on the processing

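The counts of genes higher and lower in AE stayed within 1.5 times of 4623 and 4241 under DESeq2, RLE or upper-quartile scaling, other filters, the fit over 12 libraries, the thinned library and the replicate block (4673 and 4324). They ran from 3565 to 4258 and from 3475 to 4337 with 1 library left out. With library totals, a choice made after seeing the data, they were 2568 and 7137. The count of genes that differ between the ages was 43 with DESeq2 (40 lower and 3 higher in young), 21 with the replicate block (all lower) and 0 to 3 with 1 library left out, against 1. Beside the results given with the block, it changed the call of 1 other named gene, *Cd3g* (1.74, FDR 0.0421).

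With library totals the log2 fold change turned negative for *Atp5b* (-0.49), *Bmpr1a* (-0.39), *Cd3d* (-0.72), *Cdh1* (-0.62), *Cldn3* (-0.089), *Ctnnb1* (-0.40), *Gata4* (-0.50), *Lrp6* (-0.41), *Smad4* (-0.70), *Sp5* (-0.55), *Tjp1* (-0.016) and *Vdr* (-0.59). *Cd3d* was -0.00838 with DESeq2 and -0.0115 with RLE, and *Smad4* -0.016 with the block. With 1 library left out the range crossed 0 for *Atp5b* (-0.016 to 0.30), *Cd3d* (-0.78 to 1.62), *Cdh1* (-0.088 to 0.10), *Dnmt3a* (-0.088 to 0.052), *Gata4* (-0.011 to 0.25), *Lrp5* (-0.15 to 0.038), *Smad4* (-0.29 to 0.076), *Sp5* (-0.20 to 0.35) and *Vdr* (-0.21 to 0.24), none of them called with all 6 libraries. *Epcam* was called with all libraries (0.73) and with ISC replicate 3 left out, and not with any other library left out (0.61 to 0.76). The causes were not tested. With 3 libraries a group, counts of 3 or fewer in a library limit what can be said of low genes.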

Other observations

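Gene families grouped by symbol after their values were seen showed differences that the lists do not cover, given here as a description. Over all genes tested, 27.7% were higher in AE and 25.4% lower. Cytosolic ribosomal proteins were lower in AE for 77 of 79 symbols, with a median log2 fold change of -2.23, and summed to 25650 to 39920 CPM in ISC and 4740 to 10420 CPM in AE. Mitochondrial ribosomal proteins were lower for 56 of 78 and higher for 1, with a median of -0.87. Reads of ribosomal proteins can be shared with processed pseudogenes. Translation initiation factors were lower for 32 of 54 and higher for 6, nucleoporins lower for 17 of 20, and SR proteins and hnRNPs lower for 25 of 31. Zinc finger genes named Zfp were lower for 136 of 345 and higher for 17, with a median of -0.54. The 10 alpha-defensins tested were all lower, with a median of -4.10, and near-identical copies can share their reads.

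Genes encoded on the mitochondrial chromosome went the other way, with 10 of 13 higher and none lower and a median of 2.04. They summed to 29910 to 71310 CPM in AE and 8719 to 26740 CPM in ISC, lowest in AE replicate 2 among AE and highest in replicate 1 in both cell types. Complex I subunits encoded in the nucleus were not called for 34 of 43, with a median of -0.07. Solute carriers were higher for 157 of 296 and lower for 54, and cytochromes P450 higher for 32 of 63 and lower for 6. Subunits of the vacuolar ATPase, which acidifies lysosomes and endosomes, were higher for 13 of 19, with a median of 1.08 that was 0.37 without the scaling factors. Rab GTPases, which direct vesicle traffic, were higher for 32 of 53 and lower for 1, with a median of 0.70 that was -0.02 without the scaling factors. All 5 small proline-rich proteins tested were higher.

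By the annotation of GENCODE M21, 4246 of 14144 protein-coding genes were higher and 3926 lower. For long noncoding genes 284 of 2003 were higher and 226 lower. This is 57.8% and 25.5% called, against 53.1% of all genes tested. The part of low counts in the lower share of long noncoding genes was not tested.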
